A study of Mus musculus with 35 samples.

Results

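The change in the nuclear to cytoplasmic ratio of each mRNA after knockdown of Chtop was measured in N2a mouse neuroblastoma cells. The quantity described is a difference of differences, called shift here: the log2 nuclear to cytoplasmic ratio in knockdown cells minus the same ratio in control cells, with both cell lines weighted equally. A positive shift means that the nuclear share of an RNA, relative to other RNAs, was higher in knockdown cells. The shift rests on 15 of the 35 libraries of the series, 8 from knockdown and 7 from control cells, chosen by their labels and not by any measured value. The change within either fraction alone is not described.

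The knockdown cells received a single Chtop siRNA product and the control cells a non-targeting siRNA pool, both without doxycycline, and all were harvested 72 h after transfection. The cells were of 2 N2a Flp-In rtTA lines, and all cells of both groups carried an integrated FLAG-tagged Chtop cDNA that only doxycycline switches on. The cDNA lacks exon 5 in the line called mEx5 and holds it in the line called pEx5. Each line gave 2 nuclear and 2 cytoplasmic libraries per condition, except that the pEx5 control had 1 cytoplasmic library. Both fractions of a culture came from the same counted cells, which were opened with detergent. The nuclear fraction is the washed pellet, and knockdown samples were pooled from 3 and control samples from 2 culture dishes. Each line is 1 integrated cell line and each condition 1 siRNA reagent, so results are limited to these.

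Chtop is an RNA-binding protein of the nucleus that joins the TREX complex, the assembly that couples transcription and splicing to export. TREX helps to hand mature mRNAs to the export receptor NXF1 (gene Nxf1), which carries them through the nuclear pore. Poly(A) RNAs that keep introns, and some long noncoding RNAs, stay in the nucleus, whereas most spliced mRNAs are read in the cytoplasm. Chtop also binds the arginine methyltransferase Prmt1 and is itself methylated on arginine.

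Counts of the 15 libraries summed to between 14420143 and 36510535, and the count table holds 9239 genes, all of which were tested. Ratios compare CPM, counts scaled to library size, after TMM scaling, on a log2 scale with a prior count of 1. A ratio of 0 therefore means an equal share of both libraries, not an equal number of molecules, and fewer cells of a kind and less RNA per cell cannot be told apart. Malat1 and Neat1, long noncoding RNAs of the nucleus, had log2 ratios of 3.78 to 4.15 and 2.53 to 3.50 in knockdown cultures, against 4.17 to 4.21 and 3.52 to 3.89 in control cultures. Mitochondrial transcripts made up 0.628% to 1.59% of nuclear counts in knockdown and 0.701% to 1.53% in control cells, and 2.27% to 3.31% and 1.90% to 2.09% of cytoplasmic counts. In nuclei this share went with the replicate number in both conditions, at 1.15% to 1.59% in replicate 1 and 0.628% to 0.828% in replicate 2. Of 18 markers of fibroblasts, epithelium, glia, endothelium and leukocytes 1 was counted, the keratin Krt8, at 9.34 to 20.7 CPM in knockdown and 11.6 to 22.03 CPM in control libraries.

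Chtop itself checked the labels. In total lysate, its level was 33.2 and 34.0 CPM in mEx5 and 22.2 and 19.4 CPM in pEx5 knockdown cells, against 141 and 139.6 CPM in mEx5 and 136 and 125 CPM in pEx5 control cells. All knockdown libraries were below all control libraries. The Chtop gene (ENSMUSG00000001017.15) lies on chromosome 3 of mm10, from 90498956 to 90509498 on the minus strand. The Chtop RNA that was left was more nuclear. Its log2 ratio was 1.36 and 1.30 in the mEx5 and 1.56 and 1.85 in the pEx5 knockdown cultures, against -0.20 and -0.18 in the mEx5 and -0.24 in the pEx5 control culture. The groups did not overlap, and the ratio rose 3.49-fold (log2 shift 1.80, SE 0.15, edgeR adjusted p = 2.6e-05). Behind these ratios stood nuclear levels of 59.6 to 74.1 CPM in knockdown and 95.5 to 129 CPM in control cells, and cytoplasmic levels of 17.1 to 30.03 CPM in knockdown and 136 to 148 CPM in control cells.

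Across all genes the shift was small for most and passed the test for 475 genes (5.14%). Of 9239 genes, 354 had a higher ratio in knockdown cells (3.83%) and 121 a lower one (1.31%), by edgeR's quasi-likelihood test at a Benjamini-Hochberg adjusted p under 0.05. The called shifts had medians of 0.58 among higher and -0.50 among lower genes, while 90% of all genes lay between -0.40 and 0.49. A change of at least 2-fold was reached by 21 of the higher and 0 of the lower genes, and one of at least 1.5-fold by 174 and 35. The ratio in all 4 knockdown cultures was above all 3 control cultures for 339 of the higher genes, against 13.3% of all genes, and below them for 116 of the lower genes, against 10.2% of all genes.

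The number of calls depended on single libraries, on the scaling and on which libraries shared the estimate of spread. That estimate came from 23 libraries, among them 8 of knockdown cells given doxycycline to switch on the cDNA, and with the 15 knockdown and control libraries fitted alone 171 genes were higher and 57 lower, 228 in all. With library totals in place of TMM, the median of all shifts moved to -0.09, against 0.01, and 206 genes were called higher and 411 lower. With a term for each culture, which pairs the fractions of the same cells, 296 genes were higher and 54 lower, with 225 of the 354 and 43 of the 121 among them. The total of 475 calls dropped to 172 without the cytoplasmic mEx5 knockdown library of replicate 1. It was between 247 and 314 without the nuclear mEx5 control, nuclear mEx5 knockdown, nuclear pEx5 knockdown or cytoplasmic mEx5 control library of replicate 1, or without the nuclear pEx5 control or cytoplasmic mEx5 knockdown library of replicate 2. For the 15 highest genes, the 15 lowest and Chtop, the call held with each of 14 libraries left out in 26 of 31. The call was lost for Xlr4c at 9 of the 14 libraries, for Atp2b4 and Nfatc3 at 8 each, for Gpi1 at 7 and for Pxdn at 3. Of all 75 genes named by rule, 33 lost the call with at least 1 library left out, 18 with the term for each culture and 29 with the knockdown and control libraries fitted alone.

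**Figure D1:**
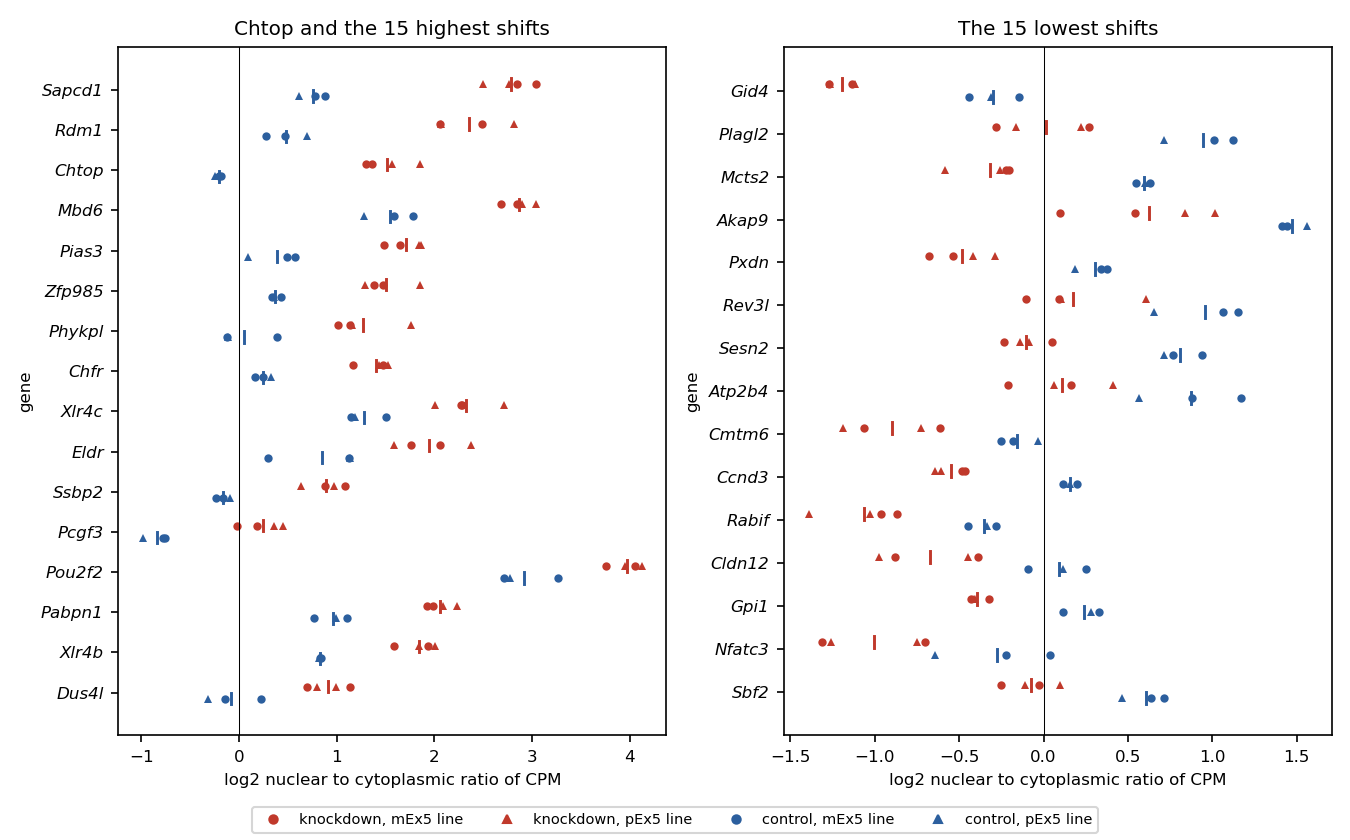
Log2 nuclear to cytoplasmic ratio of CPM in each culture (points), knockdown in red above control in blue, circles for the mEx5 and triangles for the pEx5 line, with a bar at each group's mean. Left, Chtop and the 15 highest shifts, and right, the 15 lowest: in every row the 4 knockdown cultures lie on one side of the 3 control cultures.

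The 15 highest genes included ones of DNA repair, chromatin, ubiquitin and SUMO ligation and poly(A) binding. Culture values are given for the mEx5 line and then the pEx5 line, in replicate order. Sapcd1 (chromosome 17, bases 35025959 to 35028016, minus strand) had the highest shift, with log2 ratios of 2.84, 3.04, 2.76 and 2.50 in knockdown cultures against 0.78, 0.88 and 0.62 in control cultures. All 4 knockdown values were above the 3 control values, a 3.88-fold rise (log2 shift 1.96, SE 0.23, edgeR adjusted p = 1.8e-04). This gene is read from a low count, with 1.61 to 2.99 CPM in knockdown and 7.399 to 8.61 CPM in control cytoplasm. Its exons overlap those of Vwa7 on the other strand, and no source used here states whether the counting used strand. If it did not, reads of such pairs cannot be told apart, which would also touch Pias3 with Nudt17, Chfr with Gm15787, Ssbp2 with 4833422C13Rik, Akap9 with Cyp51, Ccnd3 with Bysl, Nfatc3 with Esrp2, Gpi1 with Gm26762 and Rpl5 with Fam69a. Genes that overlap on the same strand, such as Pabpn1 with Gm20521 and Elavl3 with Gm49318, can share reads in either case. Rdm1, a RAD52 motif protein of DNA repair, followed. Its log2 ratio was 2.49, 2.06, 2.82 and 2.07 in knockdown cultures, against 0.47, 0.28 and 0.70 in control cultures. The ratio rose 3.57-fold in Rdm1 (log2 shift 1.83, SE 0.23, edgeR adjusted p = 2.9e-04).

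Genes of chromatin and transcription are described here as a set. Mbd6, a methyl-CpG-binding domain protein, had log2 ratios of 2.85, 2.69, 3.04 and 2.90 in knockdown cultures, against 1.78, 1.59 and 1.28 in control cultures. Its nuclear level was 932 to 1005 CPM in knockdown and 267 to 347 CPM in control cells, and its cytoplasmic level 122 to 147 CPM and 86.8 to 115 CPM. Mbd6 thus differed in ratio by a log2 shift of 1.33 (SE 0.17). It was the 1 member called of 10 measured genes of methyl-CpG-binding proteins (10%, against 3.83% of all genes called higher). Pcgf3, a ring finger subunit of a variant Polycomb complex, was more cytoplasmic in control cells. Its log2 ratio was -0.02, 0.19, 0.36 and 0.46 in knockdown cultures against -0.78, -0.76 and -0.98 in control cultures, and its shift was 1.08 (SE 0.13, edgeR adjusted p = 2.0e-04). Pou2f2, the octamer-binding factor OCT2, was the most nuclear of the named mRNAs, with ratios of 3.76 to 4.12 in knockdown and 2.71 to 3.26 in control cultures. Ssbp2, a cofactor of LIM-domain transcription complexes, had ratios of 0.64 to 1.09 in knockdown and -0.23 to -0.09 in control cultures. The shifts of Pou2f2 and Ssbp2 were 1.07 (SE 0.15) and 1.09 (SE 0.13). Zfp985, a zinc finger gene, had a shift of 1.23 (SE 0.21), and reads from related genes of its family could add to it.

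Both ligases among the highest genes had groups far apart. Pias3 joins SUMO to proteins, and its log2 ratio was 1.48, 1.65, 1.84 and 1.87 in knockdown cultures against 0.57, 0.49 and 0.09 in control cultures. In the list taken for the SUMO pathway the other 19 measured genes were not called, and the median of the 20 was -0.08. Its share called higher was 5%, against 3.83% of all genes. Chfr, a ubiquitin ligase of an early mitotic checkpoint, had ratios of 1.47, 1.17, 1.52 and 1.43 in knockdown and 0.25, 0.17 and 0.33 in control cultures. With an SE of 0.10, the Chfr shift of 1.16 was the most precise of the highest genes (edgeR adjusted p = 2.6e-05). It was read in both lines at nearly the same size, 1.11 in the mEx5 and 1.21 in the pEx5 line.

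The remaining highest genes were of several kinds. Phykpl, an enzyme of hydroxylysine breakdown, had a shift of 1.21 (SE 0.20), and Dus4l, a tRNA dihydrouridine synthase, one of 1.04 (SE 0.19). The exons of Phykpl overlap those of Hnrnpab on the other strand, and Hnrnpab itself had a shift of -0.04. Eldr, a long noncoding RNA gene near Egfr, had ratios of 1.59 to 2.38 in knockdown and 0.30 to 1.14 in control cultures. Its shift of 1.10 (SE 0.24) was called without, and not with, a term for each culture (edgeR adjusted p = 0.015 and 0.063). Xlr4b and Xlr4c, neighbours on the X chromosome with near-identical sequences, had shifts of 1.04 (SE 0.18) and 1.14 (SE 0.29). Reads of the Xlr4 genes can be split between them, so the pair counts as 1 observation.

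The 15 lowest shifts were smaller in size and included those of a ubiquitin ligase receptor, a cyclin, membrane proteins, a scaffold and a glycolytic enzyme. Gid4, the substrate receptor of the CTLH ubiquitin ligase (chromosome 11, bases 60417145 to 60450927, plus strand), came first. Its log2 ratio was -1.27, -1.13, -1.26 and -1.12 in knockdown cultures, against -0.14, -0.44 and -0.31 in control cultures. The groups were well apart and narrow, and the ratio was 1.90-fold lower (log2 shift -0.93, SE 0.12, edgeR adjusted p = 5.8e-04). Gid4 had 50.9 to 56.1 CPM in knockdown and 29.2 to 36.02 CPM in control nuclei, and 115 to 132 CPM in knockdown and 36.2 to 49.0 CPM in control cytoplasm.

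Among regulators of growth and stress, cyclin D3 and sestrin 2 were lower. Ccnd3, which drives G1 progression with CDK4 or CDK6, had log2 ratios of -0.48, -0.47, -0.60 and -0.65 in knockdown cultures, against 0.11, 0.20 and 0.15 in control cultures. Sesn2, a p53 target that restrains mTORC1, had ratios of -0.23, 0.05, -0.09 and -0.14 in knockdown and 0.94, 0.77 and 0.71 in control cultures. In both genes all knockdown values were below all control values, with shifts of -0.78 (SE 0.17) for Ccnd3 and -0.81 (SE 0.15) for Sesn2. Ccnd3 was the 1 of 14 measured G1 cyclins, CDKs and their regulators that was called (7.14%, against 1.31% of all genes called lower). Of 14 measured p53 targets, Sesn2 was lower (7.14%) while Rrm2b at 0.71 (SE 0.18) and Bax at 0.52 (SE 0.11) were higher (14.3%). Over all genes 3.83% were higher, and the median of the p53 targets was -0.06. The call of Rrm2b held at 4 of the 14 libraries left out. That of Bax was lost with the term for each culture (edgeR adjusted p = 0.0503). Plagl2, a zinc finger transcription factor, had ratios of -0.28 to 0.27 in knockdown and 0.71 to 1.12 in control cultures, a shift of -0.91 (SE 0.18). Nfatc3, a calcium-responsive transcription factor, had a shift of -0.71 (SE 0.18). Its call was lost with the term for each culture (edgeR adjusted p = 0.096).

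Several of the lowest genes have transcripts longer than the median of 3027 bases. Akap9, a centrosome and Golgi scaffold for protein kinase A, had log2 ratios of 0.10, 0.54, 0.84 and 1.01 in knockdown and 1.41, 1.44 and 1.56 in control cultures. Its shift was -0.90 (SE 0.16, edgeR adjusted p = 0.0041). Rev3l, the catalytic subunit of DNA polymerase zeta, had ratios of -0.10, 0.09, 0.10 and 0.60 in knockdown and 1.06, 1.15 and 0.65 in control cultures. The highest knockdown value and the lowest control value of Rev3l, both from the pEx5 line, nearly met, and the shift was -0.85 (SE 0.18). Atp2b4, a calcium pump of the plasma membrane, Sbf2, a myotubularin-family protein, and Pxdn, a peroxidase of the extracellular matrix, had shifts of -0.81 (SE 0.19), -0.69 (SE 0.15) and -0.88 (SE 0.20). The call of Atp2b4 was lost with the term for each culture (edgeR adjusted p = 0.054). The membrane proteins Cmtm6 and Cldn12, the Rab-binding protein Rabif and the glycolytic enzyme Gpi1 lay between -0.72 and -0.80. Mcts2, a single-exon copy of the translation factor gene Mcts1, had a shift of -0.90 (SE 0.16), and reads of the 2 genes could be shared.

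Genes of the export machinery that Chtop belongs to held 0 calls in the TREX core and 2 and 3 calls in the lists of export receptors and of the nuclear pore. Chtop itself was left out of every list. Of 13 measured genes of the TREX core, 0 were called, with a median of 0.05, beside 0.01 over all genes, and the sign of that median changed in 10 of 27 other settings. Their values ran from -0.45 in Alyref2, an adaptor paralog, to 0.32 in Thoc6, a subunit of the THO complex (SE 0.18 and 0.11). Of 20 measured export receptors and adaptors, 2 were higher (10%, against 3.83% of all genes) and 0 lower, and Nxf1, the receptor, had a shift of -0.03 (SE 0.11). Rbm15, an adaptor for NXF1 that also guides m6A methylation, had log2 ratios of 0.83, 1.34, 1.06 and 1.30 in knockdown and 0.59, 0.49 and 0.36 in control cultures. The ratio of Rbm15 rose 1.68-fold (edgeR adjusted p = 0.0082). Srrt, which links the cap-binding complex to RNA fates, had a shift of 0.44 (SE 0.12). The call of Srrt held at 2 of the 14 libraries left out and was lost with the term for each culture (edgeR adjusted p = 0.10). Of 31 measured nuclear pore genes, Nup85, Nup107 and Ndc1 were higher (9.68%), at 0.47, 0.35 and 0.58, and the list's median was -0.06. The calls of Nup107 and Ndc1 held at 2 each of the 14 libraries left out and that of Nup85 at 8, and Nup107 was lost with the term for each culture (edgeR adjusted p = 0.13).

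Lists of RNA processing were counted in the same way, beside 3.83% of all genes called higher and 1.31% called lower. Pabpn1, the nuclear poly(A)-binding protein, had log2 ratios of 1.93, 1.99, 2.24 and 2.09 in knockdown and 0.77, 1.11 and 1.00 in control cultures. Its groups did not overlap, the shift was 1.07 (SE 0.11, edgeR adjusted p = 7.9e-05), and it was the 1 of 24 measured genes of 3' end processing that was called. Among 35 measured genes known for introns that are spliced late, Snrnp70, Clk2 and Cdk11b were higher (8.57%) and Luc7l2 was lower (2.86%), with a median of 0.14. By line the median was -0.02 in the mEx5 line, with 17 members above 0, and 0.27 in the pEx5 line, with 29. Snrnp70, the 70 kDa protein of the U1 snRNP, had ratios of 2.36, 2.16, 2.47 and 2.37 in knockdown and 1.47, 1.29 and 1.62 in control cultures, a shift of 0.87 (SE 0.11). Clk2, a kinase of SR proteins, and Cdk11b, a kinase linked to transcription and splicing, had shifts of 0.65 and 0.58, and Luc7l2, a U1-associated factor, one of -0.50, which was called at 7 of the 14 libraries left out. The call of Luc7l2 was lost with the term for each culture (edgeR adjusted p = 0.054). Of 27 measured hnRNP genes, 4 were higher (14.8%): Ptbp2 at 0.85, Hnrnpa2b1 at 0.62, Hnrnpa3 at 0.56 and Hnrnpl at 0.36. Of these, Ptbp2 alone kept its call with each library left out. Hnrnpa2b1 and Hnrnpl lost theirs with the term for each culture (edgeR adjusted p = 0.052 and 0.15). Of 16 measured SR proteins 0 were called, with a median of 0.03.

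Neuronal RNA-binding proteins stood among the better supported members. Celf4 had log2 ratios of 2.28, 2.27, 2.04 and 1.99 in knockdown and 1.02, 1.27 and 1.24 in control cultures. Elavl3 had ratios of 1.64, 1.55, 1.85 and 1.28 in knockdown and 0.72, 0.68 and 0.90 in control cultures. Both encode proteins that bind U-rich or GU-rich sites in mRNAs of neurons, and in both no knockdown culture fell in the control range. The shifts were 0.97 (SE 0.11) for Celf4, 0.86 (SE 0.14) for Elavl3 and 0.88 (SE 0.17) for Msi1, a regulator of neural stem cells. These were 3 of 16 measured genes (18.8%, against 3.83% of all genes), whose median was 0.09. The RNA exosome list held 2 higher of 17 (11.8%), the core subunit Exosc2 at 0.75 and Zfc3h1, a partner in nuclear decay, at 0.50. The call of Zfc3h1 held at 5 of the 14 libraries left out. Among neuronal cytoskeleton and synaptic genes, peripherin (Prph) was higher at 0.72 (SE 0.17), the 1 called of 26 measured (3.85%). Its call held at 11 of the 14 libraries left out and was lost with the term for each culture (edgeR adjusted p = 0.055).

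Most ribosomal protein mRNAs had small shifts above 0, with a higher median in the mEx5 than in the pEx5 line, a difference that was not tested for the list. Of 81 measured members 4 were higher (4.94%, against 3.83% of all genes) and 0 lower, and the median was 0.33. A shift above 0 was found in 78 (96.3%), against 51.7% of all genes. By line, 81 were above 0 in the mEx5 and 55 in the pEx5 line. Rpl5, of the large subunit, had log2 ratios of 1.46, 1.43, 1.57 and 1.403 in knockdown and 0.73, 0.74 and 0.71 in control cultures. Its groups were narrow and did not overlap (shift 0.81, SE 0.14, edgeR adjusted p = 0.0035). Rpl10a, Rps12 and Rpl12 followed at 0.75, 0.73 and 0.69, of which Rpl12 lost its call at 6 of the 14 libraries left out. Rpl5, Rps12 and Rpl12 share exon bases with annotated snoRNA genes. The median log2 ratio of the 81 genes was -0.22 and -0.59 in the mEx5 and -0.69 and -0.77 in the pEx5 knockdown cultures, against -0.87 and -0.96 in the mEx5 and -0.70 in the pEx5 control culture. Knockdown and control thus parted in the mEx5 line, with a median shift of 0.54, and hardly in the pEx5 line, with 0.09. Over the 27 other settings the median of both lines stayed between 0.20 and 0.41. These are short transcripts, with a median of 887 bases, and the cytoplasmic mEx5 knockdown library of replicate 1, whose omission moved the calls most, belongs to the culture with the highest median. The part of length, mitochondrial RNA share and this library in the result was not tested. Neither was that of the pEx5 control, which has cytoplasm of replicate 1 alone. Within replicate 1, which has both fractions in both lines, the members' median difference was 0.70 in the mEx5 and -0.02 in the pEx5 line. In the replicate 2 pair of the mEx5 line it was 0.39. Other lists of short transcripts had the same order of lines. Nuclear genes of the respiratory chain had medians of 0.37 and -0.09 in the mEx5 and pEx5 lines (77 genes), genes of the mitochondrial ribosome 0.35 and -0.04 (75 genes) and the proteasome 0.33 and -0.03 (45 genes). Within replicate 1 the median differences in the mEx5 and pEx5 lines were 0.47 and -0.25, 0.52 and -0.04, and 0.43 and -0.16. Over both lines 0, 2 (2.67%) and 1 (2.22%) of these genes were called higher, against 3.83% of all genes, and 0 lower. Their medians over both lines were 0.13, 0.14 and 0.13, and 0.01, 0.06 and 0.03 with the trend on length and GC content taken out. The calls of the mitochondrial ribosome, Mrpl38 and Mrpl44, held at 2 and 1 of the 14 libraries left out. Both were lost with the term for each culture (edgeR adjusted p = 0.12 and 0.10). Psmb8, the call of the proteasome, held at 3 of the 14 and was also lost with that term (edgeR adjusted p = 0.061).

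**Figure D2:**
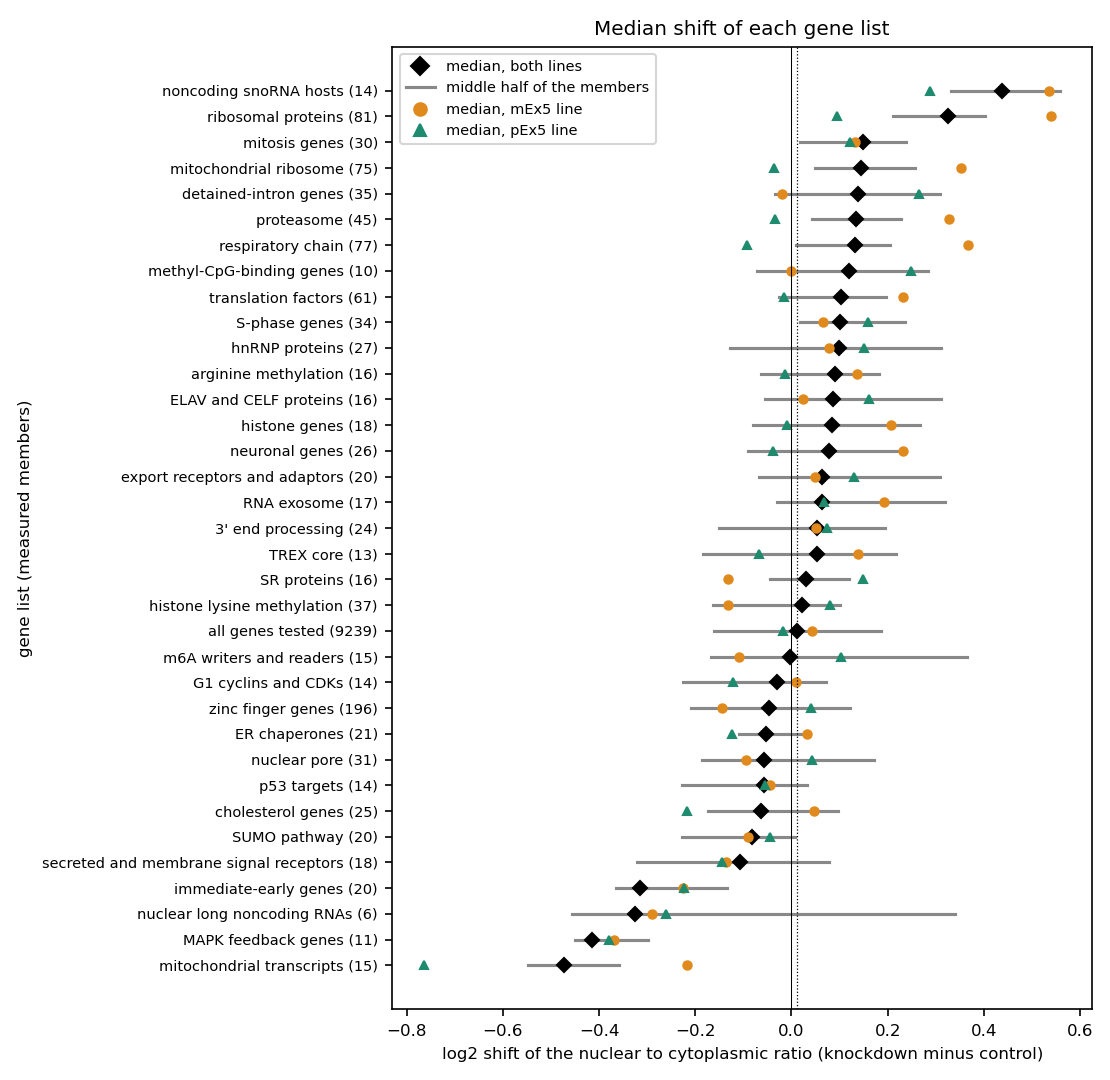
Median log2 shift (knockdown minus control) of each gene list over both lines (diamonds), and in mEx5 (circles) and pEx5 cells (triangles), with a grey line over the interquartile range of the members and the number of measured members in brackets. The snoRNA hosts and ribosomal proteins lie highest, at 0.44 and 0.33, the mitochondrial transcripts lowest, at -0.47, and the dotted line marks the median of all genes, 0.01.

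Noncoding host genes of snoRNAs had the highest median of the lists, 0.44, with 12 of 14 measured members above 0 (85.7%). Over all genes 51.7% were above 0. The list's median log2 ratio was 1.22, 1.19, 0.43 and 1.11 in knockdown cultures, against 1.20, 0.87 and 0.69 in control cultures. The culture medians thus overlapped, and in the replicate 1 pair of the pEx5 line the members' median difference was -0.11. Snhg20, Snhg6 and Snhg1 were called higher, at 1.03 (SE 0.28), 0.69 (SE 0.16) and 0.58 (SE 0.15). These were 21.4% of the measured members, against 3.83% of all genes. The call of Snhg20 held at 4 of the 14 libraries left out, that of Snhg6 at 11 and that of Snhg1 at 6. Snhg20 and Snhg1 share exon bases with other annotated small RNA genes on their strand, so reads of both cannot be parted. The list's median shift stayed between 0.34 and 0.54 over the 27 other settings. Among 6 measured nuclear long noncoding RNAs, Pvt1 was higher at 0.68 (SE 0.18), 16.7% against 3.83% of all genes. Its call held at 5 of the 14 libraries left out. Malat1 at -0.26 (SE 0.15) and Neat1 at -0.48 (SE 0.41) were not called. The 15 mitochondrial transcripts had a median of -0.47, none was above 0 and 0 were called. Their SEs ran as high as 0.95, and the median ran between -0.84 and -0.07 over the 27 other settings.

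Both lists of genes with short-lived mRNAs had medians below 0 and 0 calls. Of 20 measured immediate-early genes 3 had a shift above 0 (15%, against 51.7% of all genes), the median was -0.31, and 0 were called (edgeR). The lowest were Klf4 at -0.58 (SE 0.23) and Ier5 at -0.55 (SE 0.20). Their median log2 ratio was 0.14, 0.11, 0.09 and 0.05 in knockdown cultures, against 0.32, 0.42 and 0.31 in control cultures. All 4 knockdown medians were below all 3 control medians. Of 11 measured genes that dampen MAPK signalling 2 were above 0 (18.2%), the median was -0.42, and 0 were called. The phosphatase Dusp5 was at -0.43 (SE 0.17) and the receptor inhibitor Errfi1 at -0.45 (SE 0.17). Dusp1 belongs to both lists. Over the 27 other settings the medians stayed below 0, at -0.41 to -0.23 for the immediate-early and -0.52 to -0.28 for the MAPK genes. Both medians were below 0 in both lines, at -0.22 in each line for the immediate-early genes and at -0.37 in the mEx5 and -0.38 in the pEx5 line for the MAPK genes.

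The other lists held between 0 and 8 calls, beside shares of 3.83% called higher and 1.31% called lower over all genes. Of 30 measured mitosis genes Chfr, the cytokinesis scaffold Anln at 0.70 (SE 0.11) and the kinesin Kif20a at 0.33 (SE 0.09) were higher (10%). The list had 25 members above 0 (83.3%, against 51.7% of all genes) and a median of 0.15. The call of Kif20a was lost at each of the 14 libraries left out. Of 34 S-phase genes, Pold1, a DNA polymerase delta subunit, was higher at 0.50, and its call held at 4 of the 14 libraries left out. Among 196 zinc finger genes 6 were higher (3.06%), with Zfp985, Zfp317 and Zfp451 among them, and 2 were lower (1.02%), with Zfp651 among them, shares close to those of all genes. Of 61 translation factors Eif2d and Eif4e3 were higher, at 0.72 and 0.58. Eif4e3 lost its call without some single libraries, such as the cytoplasmic mEx5 knockdown library of replicate 1. Single calls were Tm7sf2 among 25 cholesterol genes, Pdia6 among 21 ER chaperones and Setd6 among 37 genes of histone lysine methylation, all higher, and Las1l, lower, among 16 of arginine methylation and its partners. Setd6 kept its call with each of the 14 libraries left out, Pdia6 at 13 and Tm7sf2 at 8. The call of Las1l held at 2 of the 14 libraries left out and was lost with the term for each culture (edgeR adjusted p = 0.11). No gene was called among 18 histone genes or 18 secreted and membrane signal receptors. Of all 34 lists 26 held at least 1 called gene.

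The annotated structure of the called genes, which the shift does not use, is described here without a test. Genes with 4 or more transcripts annotated as retaining an intron were called higher in 8.14% of cases, against 2.32% of genes with no such transcript. The order held at 3.99% for 2 or 3 and 3.11% for 1 such transcript, while lower calls ran between 0.966% and 1.63% over the same bins. Genes with more such transcripts were also read at higher levels, with medians of 80.5 and 42.3 CPM in the top and bottom bins. Above the median level of 54.3 CPM the shares called higher were 8.62% and 2.36%, and at or below it 7.05% and 2.29%. The top and bottom bins also differed in exon number, with medians of 16 and 6 exons, and the 2 features were not separated. In all, 77.4% of higher genes had such a transcript, against 58.7% of lower genes and 62.7% of all genes.

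Exon number and length had different medians in the 2 directions as well. Of genes with 1 exon 0.940% were called higher and 1.88% lower, and of genes with 13 to 20 exons 5.89% were higher and 1.04% lower. Higher genes had a median of 11 exons, 2747 bases of transcript and 861 bases of 3' UTR, in the longest coding transcript. Lower genes had 8 exons, 3949 bases and 1686 bases, and all genes 9 exons, 3027 bases and 1047 bases. The trend of the shift on length ran in opposite directions in the lines. The pEx5 control has cytoplasm of replicate 1 alone but nuclei of both replicates, so a replicate difference enters the pEx5 values. Its part in this trend was not tested. In the mEx5 line the median shift was 0.30 in the shortest and -0.22 in the longest bin of transcripts, and in the pEx5 line it was -0.08 and 0.03. Taking this trend and that on GC content out of each library raised the calls to 615 higher and 465 lower.

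**Figure D3:**
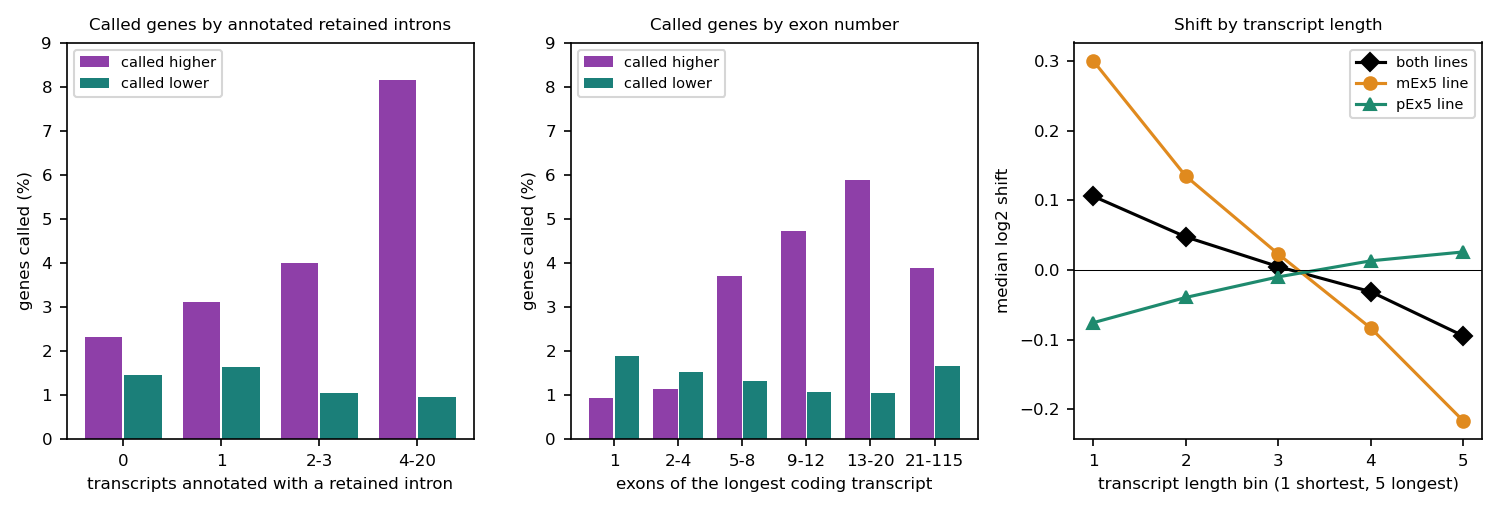
Left and middle, share of genes called higher (purple) and lower (teal) by the number of transcripts annotated with a retained intron and by exon number, in percent of the genes of each bin. Right, median log2 shift in 5 bins of transcript length over both lines and in each line: the bin of 4 to 20 retained-intron transcripts has the highest share of higher calls, 8.14%, and the length trend falls in the mEx5 line and not in the pEx5 line.

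The authors' deposited table marks genes whose RNA overlapped Chtop iCLIP sites. By that mark in the authors' deposited table, 57.3% of higher and 63.6% of lower genes were bound, against 48.5% of all genes. The mark in the authors' deposited table went with the level of a gene, with medians of 75.2 CPM for marked and 35.2 CPM for unmarked genes. Above the median level, marked genes made up 74.5% of higher, 72.3% of lower and 65.8% of all genes in the authors' deposited table. At or below it the same shares were 35.1%, 44.7% and 31.2%, from the authors' deposited table. The median shift was -0.02 for marked and 0.04 for unmarked genes. The authors' deposited table also marks 1555 genes as increased and 1239 as decreased in this same difference, with 0.295 as the smallest increase so marked. Of the higher genes, 339 carried the increase mark of the authors' deposited table (95.8% of 354, and 21.8% of 1555). Of the lower genes, 117 carried its decrease mark (96.7% of 121, and 9.44% of 1239), and no called gene carried the opposite mark in the authors' deposited table.

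Levels in total lysate, measured in separate libraries of the same cultures (4 knockdown and 4 control), differed between the conditions in the direction opposite to the shift for many called genes. Of the 354 higher genes, 160 (45.2%) were lower in all 4 knockdown than in all 4 control lysates, against 19.7% of all genes, and 42 (11.9%) were higher, against 19.2%. Of the 121 lower genes, 59 (48.8%) were higher in all knockdown lysates and 4 (3.31%) lower. The median log2 fold change in lysate, knockdown over control, was -0.18 for higher, 0.27 for lower and 0.01 for all genes. Among the highest genes Sapcd1, Pcgf3 and Ssbp2 had log2 fold changes of -1.18, -1.16 and -0.89 in lysate. Rdm1, Mbd6 and Eldr parted from this direction, with 0.63, 0.71 and 1.21. Among the lowest genes Gid4, Mcts2 and Cmtm6 had 1.49, 1.16 and 0.95, whereas Pxdn, at -0.51, changed in the same direction as its shift.

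**Figure D4:**
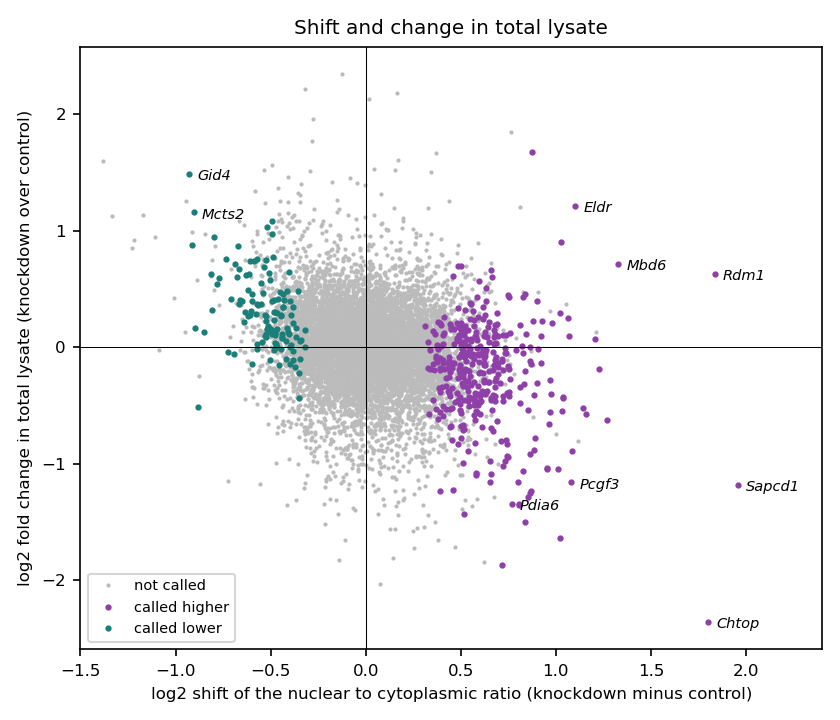
Log2 fold change in total lysate (knockdown over control) against the log2 shift of the nuclear to cytoplasmic ratio (knockdown minus control), a point per gene, called higher in purple and called lower in teal. The higher genes lie mostly below the horizontal line, with a median of -0.18, and the lower genes mostly above it, with a median of 0.27, while Rdm1, Mbd6 and Eldr are high on both axes.

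The lines, which share no library, gave shifts of the same sign for the genes called in either of them, with smaller medians in the line that did not make the call. In the mEx5 line alone 60 genes were higher (0.649%) and 18 lower (0.195%), and in the pEx5 line 57 were higher (0.617%) and 3 lower (0.0325%). With library totals in place of TMM these became 27 and 58 in the mEx5 and 33 and 6 in the pEx5 line. All 60 genes called higher in the mEx5 line were above 0 in the pEx5 line, where 47.6% of all genes were, with a median of 0.70 there and 0.83 in their own line. All 57 genes called higher in the pEx5 line were above 0 in the mEx5 line, with medians of 0.65 there and 0.99 in their own. The 18 genes called lower in the mEx5 line were all below 0 in the pEx5 line, with a median of -0.40 there and -0.81 in their own. The 3 genes called lower in the pEx5 line were below 0 in the mEx5 line as well, with a median of -0.12 there and -0.96 in their own. Across the 9239 genes the shifts of the lines had a Spearman rho of 0.40. No gene differed in shift between the lines by edgeR (0% of genes, 353 at an unadjusted p under 0.05) or by DESeq2 (0 genes, 387 unadjusted), and the median SE of that difference was 0.30. Leaving out a library took the calls down to between 5 and 49 in the mEx5 and between 11 and 43 in the pEx5 line, the fewest without the cytoplasmic mEx5 knockdown library and without the nuclear pEx5 control library of replicate 1. Each library of a line moved its count by over 1.5 times, except the cytoplasmic pEx5 knockdown library of replicate 1 (43 calls).

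**Figure D5:**
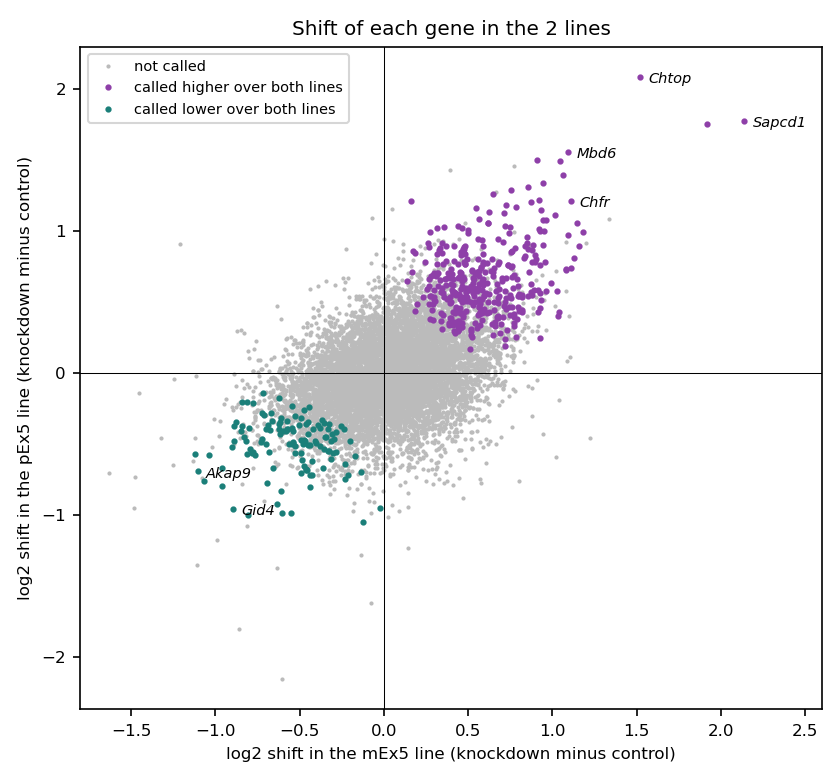
Log2 shift (knockdown minus control) in the pEx5 line against that in the mEx5 line, a point per gene. Genes called higher over both lines (purple, 354) lie in the upper right and genes called lower (teal, 121) in the lower left, with Chtop and Sapcd1 farthest out.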

How the data were processed

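The submitters' processing notes name Salmon 0.14.1, DESeq2 and mm10, with no role for each. Whole-number counts per gene and library are what the authors deposited. The authors' deposited table gave log2 differences and gene marks, cited where credited; no source used here describes its making. Counts of all 23 nuclear and cytoplasmic libraries were fitted by group with edgeR 4.0.16 (R 4.3.3), TMM scaling and robust quasi-likelihood dispersion; filterByExpr removed 0 genes, and p-values were Benjamini-Hochberg adjusted over 9239 genes. The SE is the shift divided by the root of F. For the single cytoplasmic pEx5 control library the fit borrows the spread of the remaining groups. That library is of replicate 1, while the nuclear pEx5 control is of both replicates. A difference between replicates therefore enters the pEx5 shift, and its part in the differences between lines was not tested. P-values reflect only the spread among the replicate libraries. On data simulated for the shift over 9239 genes, 92% of changes of 1 and 37% of changes of 0.6 on the log2 scale were recovered, with 6 false among 135 calls. The simulated libraries were drawn independently, with no culture or replicate effect, unlike the real ones. These rates may therefore not hold for the real data. Nuclear and cytoplasmic libraries of a culture come from the same cells by protocol. Their residuals correlated at -0.089 to 0.50 (5 pairs). Pairs of knockdown and control groups alone correlated at 0.49, 0.30 and 0.50, and those of groups given doxycycline at 0.18 and -0.089. Same-numbered nuclear and cytoplasmic libraries of different knockdown and control cultures correlated at 0.31 to 0.62. Gene features came from GENCODE M21, which matched all IDs. No count column lacked a sample. The rule for named genes took Chtop, the 15 highest and 15 lowest called shifts (mean of at least 5 CPM, same sign in both lines, no predicted symbols) and up to 4 called members of each of 34 lists. Members, lists and tests were chosen with earlier results of these data known. Median SE was 0.15. Alternatives were other scalings, filters, tools and blocks, a trend correction and each library left out. The check of the cells against neuroblastoma markers is not reported here.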

Additional observations from a re-analysis of the deposited data

Results flagged for a closer look

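Mcts2 had a log2 ratio of -0.58 in the pEx5 knockdown culture of replicate 1, apart from the other 3 knockdown cultures, the nearest at -0.26 and the highest at -0.21. This was the 1 gene with such a stray culture among 31 examined, and chance gives about 1 in 20.

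For 9 gene lists the median log2 ratio of both mEx5 knockdown cultures lay to one side of the mEx5 controls, and that of both pEx5 knockdown cultures to the other side of the pEx5 control. This difference was not tested. Median shifts in the mEx5 and pEx5 lines were 0.14 and -0.07 for the TREX core, 0.23 and -0.01 for translation factors and 0.37 and -0.09 for the respiratory chain. For the mitochondrial ribosome they were 0.35 and -0.04, for the proteasome 0.33 and -0.03 and for histone genes 0.21 and -0.01. The m6A genes had -0.11 and 0.10, the methyl-CpG-binding genes -0.0020 and 0.25, and the genes of histone lysine methylation -0.13 and 0.08.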

How the results depend on the processing

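No named gene reversed under any setting. For the shift over both lines (475 calls, 354 higher and 121 lower), calls numbered 792 with DESeq2 (531 higher, 261 lower), 228 with the knockdown and control libraries fitted alone, 787 with all 35 libraries, 1080 with the length and GC trend taken out, and 172 to 544 as single libraries were left out. Size factors, filters and limma gave 459 to 475. In the mEx5 line (78 calls) DESeq2 gave 308 and leave-one-out 5 to 49. In the pEx5 line (60 calls) DESeq2 gave 186, library totals 39 and leave-one-out 11 to 43. With the replicate number as a block, calls numbered 1188 (1929 with the trend also taken out), 2089 with a block in each fraction, 527 in the mEx5 and 238 in the pEx5 line; all 475 genes were among the 1188. Same-numbered residuals correlated at 0.52 to 0.72 between nuclear groups and at 0.0596 to 0.65 between cytoplasmic ones. The cytoplasmic pairs close to 0 each held a group given doxycycline, and those of knockdown and control groups alone correlated at 0.44, 0.45 and 0.65. The libraries of the shift thus varied with the replicate number, which the main fit counts as spread. No label ties a number to a shared day or batch, and the block is given as an alternative only. With the culture block 57 of 75 named genes stayed called. Omitting the only cytoplasmic pEx5 control could not be fitted. The smallest called shifts were 0.31 and -0.32.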
